A study of Mus musculus with 6 samples.

Results

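The genes described here are 10 regulators and markers of the epithelial to mesenchymal switch: the Twist genes Twist1 and Twist2, the Snail genes Snai1, Snai2 and Snai3, the Zeb genes Zeb1 and Zeb2, the cadherins Cdh1 and Cdh2, and the matrix gene Fn1. They were picked by symbol from the 39179 genes of the count table, and each of the 10 was found there. The set was drawn up around the gain of Twist1 counts in these same libraries, so the differences of its members between groups are given as a description, without a test. The question was whether that gain came with other genes of a mesenchymal programme.

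RNA was sequenced from differentiated neural progenitors, cells from which neurons and glia arise, taken from the cerebral cortex of CD1 mouse embryos at E13.5. The 3 G392E-NS libraries were from cells that stably expressed neuroserpin with the G392E change, a variant of this neuronal protease inhibitor that causes the dementia FENIB. The 3 GFP libraries were from cells of the same tissue, strain and stage that stably expressed green fluorescent protein. The labels do not give the vector or its promoter, nor do they say whether the replicates of a group came from separate cultures, so the p-values cover the spread among these samples only, and that spread may be technical.

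In epithelia, Snail and Zeb proteins are zinc finger repressors that bind E-box sequences, among them those in the promoter of the E-cadherin gene Cdh1, and Twist proteins are basic helix-loop-helix factors that act on E-boxes as dimers with E proteins. During an epithelial to mesenchymal transition these factors silence Cdh1, while N-cadherin, encoded by Cdh2, and matrix proteins such as fibronectin, encoded by Fn1, come up. Neural tissue differs from an epithelium at the start: N-cadherin holds the junctions of neural progenitors, and Zeb1 and Zeb2 act in normal neural development. Twist1 is best known from cranial neural crest and mesoderm, where it keeps cells mesenchymal.

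Libraries held 15507487 to 24835835 counts, and 13775 genes passed the filter on low counts. The edgeR quasi-likelihood test put 660 of these above and 187 below GFP at its threshold, an adjusted p of 0.05, which is 4.79% upward and 1.36% downward. The mouse neuroserpin gene Serpini1 had 5.72 ± 0.924 CPM (TMM-scaled counts relative to library size) in G392E-NS and 4.69 ± 0.483 CPM in GFP libraries (mean ± SD, n = 3 each; log2 fold change 0.29, SE 0.19, adjusted p = 0.419 by edgeR). The species of the introduced neuroserpin is not in the labels, so this value does not check it. Xist, the RNA of the inactive X chromosome, stood at 1160 to 1850 CPM in G392E-NS and 1.41 to 1.56 CPM in GFP libraries. The sex of the embryos is not in the labels. As the difference in Xist runs along the groups, its part in the results cannot be told apart from that of G392E-NS and was not tested.

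Twist1 was read in every G392E-NS library and in no GFP library, Twist2 in none. Twist1 (ENSMUSG00000035799, GRCm38 chromosome 12, 33957671 to 33959829, plus strand) had 34, 45 and 50 counts in G392E-NS replicates 1, 2 and 3, and 0 in each GFP library. At 1.41, 1.91 and 3.26 CPM, the G392E-NS libraries lay apart from the GFP libraries, and replicate 3, the smallest library, was the highest. Against a floor of 3 counts over the GFP group, which allows up to 0.0495 CPM there, Twist1 was at least 41.4-fold higher in G392E-NS libraries. The 95% exact binomial interval of the ratio of summed counts starts at 33.2. It also covers counting error in the G392E-NS libraries, but not the spread among libraries. As Twist1 was chosen for this gain, both bounds are descriptions and not tests. In bulk RNA, more cells with Twist1 and more Twist1 RNA per cell cannot be told apart. Of the genes with no count in any GFP library, 2 had at least 100 counts in the G392E-NS libraries together: Twist1 and Xlr3a, an X-linked gene with near-identical copies that make its counts uncertain. Without GFP replicate 3 the bound was 25.5-fold, because the same floor of 3 counts then stood over fewer GFP counts.

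Its paralogue Twist2 (ENSMUSG00000007805, chromosome 1, 91801461 to 91848028), which shares the helix-loop-helix domain, had 0 counts in all 6 libraries. At these depths a level of up to 0.0476 CPM in the G392E-NS group and 0.0495 CPM in the GFP group would have escaped detection.

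No gene next to Twist1 was read in one group and absent from the other. Within 500 kb on either side, the table held Ferd3l, another helix-loop-helix gene, and Hdac9, a histone deacetylase gene. Ferd3l was at 0 in all 6 libraries. Hdac9 had 21, 23.9 and 16.1 CPM in G392E-NS libraries and 15.6, 17.1 and 19.5 CPM in GFP libraries, which overlapped (log2 fold change 0.23, SE 0.17, adjusted p = 0.452 by edgeR). This window was chosen after the Twist1 values were known.

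Twist2, the paralogue of Twist1, and Snai1, a zinc finger gene of another family, were at 0 or near it in both groups. Their start regions and that of Twist1 are shown here, to set E-box and TATA letters side by side. Shown with them is Scarf2, the gene whose counts over the 6 libraries were most like those of Twist1. The sequences are RefSeq windows of GRCm38.p6, from 250 bases before to 50 bases after the start of transcription, printed on the strand of the gene. RefSeq windows were at hand for 4 of the 10 genes. Capitals mark each match, on either strand, of the E-box letters CANNTG, which include CAGGTG and its reverse complement CACCTG, and of TATAA or its reverse complement TTATA.
Twist1, chr12:33957421-33957720, plus strand: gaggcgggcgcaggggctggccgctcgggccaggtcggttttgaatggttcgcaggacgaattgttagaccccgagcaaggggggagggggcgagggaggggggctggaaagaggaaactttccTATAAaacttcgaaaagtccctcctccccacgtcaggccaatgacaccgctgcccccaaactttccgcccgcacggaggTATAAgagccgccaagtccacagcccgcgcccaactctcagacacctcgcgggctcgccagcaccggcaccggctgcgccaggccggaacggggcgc
Twist2, chr1:91801211-91801510, plus strand: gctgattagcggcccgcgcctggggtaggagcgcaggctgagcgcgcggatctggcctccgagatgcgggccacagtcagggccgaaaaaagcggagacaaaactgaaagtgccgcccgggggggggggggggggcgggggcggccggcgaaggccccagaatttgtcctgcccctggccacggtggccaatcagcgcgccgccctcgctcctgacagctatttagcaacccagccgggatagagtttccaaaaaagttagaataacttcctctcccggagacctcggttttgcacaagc
Snai1, chr2:167537945-167538244, plus strand: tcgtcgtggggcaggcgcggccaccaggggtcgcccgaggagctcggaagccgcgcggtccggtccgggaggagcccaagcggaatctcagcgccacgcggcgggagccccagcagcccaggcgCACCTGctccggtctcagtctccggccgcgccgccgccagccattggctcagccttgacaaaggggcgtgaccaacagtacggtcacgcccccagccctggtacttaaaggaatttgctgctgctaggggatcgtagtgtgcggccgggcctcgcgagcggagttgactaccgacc
Scarf2, chr16:17797032-17797331, plus strand: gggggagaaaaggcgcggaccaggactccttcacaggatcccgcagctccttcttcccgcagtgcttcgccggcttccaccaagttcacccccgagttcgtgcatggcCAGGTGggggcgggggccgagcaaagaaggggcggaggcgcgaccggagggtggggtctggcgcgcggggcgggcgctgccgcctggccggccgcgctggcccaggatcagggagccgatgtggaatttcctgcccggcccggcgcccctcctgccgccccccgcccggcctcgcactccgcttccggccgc

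The Twist1 window held TATAA at 126 and at 47 bases before the start and no CANNTG. Of 32851 windows of 300 bases over all genes, 24.9% held TATAA or TTATA and 72.3% held CANNTG. The Twist2 window held neither. The Snai1 window held 1 CACCTG, 126 bases before the start, a form that 20.2% of all windows held on either strand. Twist1, Twist2 and Snai1 had 27, 25 and 34 CG pairs in the window, and 15.5%, 18.4% and 7.73% of all windows had as many or more. Matches are a description of letters and not of bound sites.

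Snail genes were at or near the limit of detection in both groups. Snai1, the repressor that starts many such transitions (ENSMUSG00000042821, chromosome 2, 167538195 to 167542814), had 6, 3 and 7 counts in G392E-NS libraries and 3, 3 and 8 counts in GFP libraries. The ranges overlapped, and the depth-scaled ratio of G392E-NS over GFP counts was 1.10, with a 95% exact binomial interval of 0.504 to 2.44. Snai2, the Slug gene of neural crest (ENSMUSG00000022676, chromosome 16, 14705852 to 14709385), had 1, 3 and 2 counts in G392E-NS libraries and 0, 6 and 3 counts in GFP libraries. Its ratio was 0.642 (0.188 to 2.02), again with overlapping ranges. Snai3 (ENSMUSG00000006587, chromosome 8, 122454208 to 122460733) was at 0 in all 6 libraries. The intervals cover counting error only, not the spread among libraries, and are not limits of detection. The counts are too low to say whether the groups differed.

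Zeb genes were highly expressed in both groups, Zeb1 most of all. Zeb1 (ENSMUSG00000024238, chromosome 18, 5591860 to 5775467) had 657, 465 and 749 CPM in G392E-NS libraries and 867, 915 and 648 CPM in GFP libraries. The groups overlapped through GFP replicate 3, which lay below G392E-NS replicates 1 and 3. The log2 fold change was -0.38 (SE 0.20), that is, 0.770 times the GFP mean. Zeb2 (ENSMUSG00000026872, chromosome 2, 44983632 to 45117395), which binds Smad proteins and acts in neural crest and in the myelinating lineage, had 203, 153 and 174 CPM in G392E-NS libraries and 177, 194 and 198 CPM in GFP libraries. These overlapped as well, with a log2 fold change of -0.10 (SE 0.12). Without G392E-NS replicate 2, the library with the lowest level of both genes, the log2 fold change was -0.20 for Zeb1 and 0 for Zeb2. Exons of Zeb2 share 653 bases with the antisense gene Zeb2os, whose reads cannot be told apart from those of Zeb2 if counting ignored strand, a setting the sources used here do not give.

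The cadherin pair was that of neural cells in both groups, with N-cadherin abundant and E-cadherin near 0. Cdh2 (ENSMUSG00000024304, chromosome 18, 16588877 to 16809246) had 317, 281 and 281 CPM in G392E-NS libraries and 313, 332 and 309 CPM in GFP libraries. The highest G392E-NS library lay within the GFP range, and the log2 fold change was -0.12 (SE 0.10). Cdh1 (ENSMUSG00000000303, chromosome 8, 106603351 to 106670246) had 4, 3 and 3 counts in G392E-NS libraries and 0, 2 and 5 counts in GFP libraries. Summed over libraries, 10 Cdh1 counts stood beside 18548 Cdh2 counts in the G392E-NS group and 7 beside 19282 in the GFP group. The depth-scaled ratio of Cdh1 counts between groups was 1.38 (95% exact binomial interval 0.473 to 4.26). The interval covers counting error only, and the counts are too low to say whether Cdh1 differed.

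Fn1, the fibronectin gene (ENSMUSG00000026193, chromosome 1, 71585520 to 71653200), lay lower in G392E-NS libraries. It had 4.16, 8.23 and 6.06 CPM there, against 9.68, 9.64 and 12.8 CPM in GFP libraries. The groups did not overlap, and the log2 fold change was -0.80 (SE 0.26), or 0.575 times the GFP mean. The direction is opposite to that of Twist1. The 292 exonic bases that Fn1 shares with the antisense gene Apol7d compare with 11685 exonic bases in all.

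**Figure D1:**
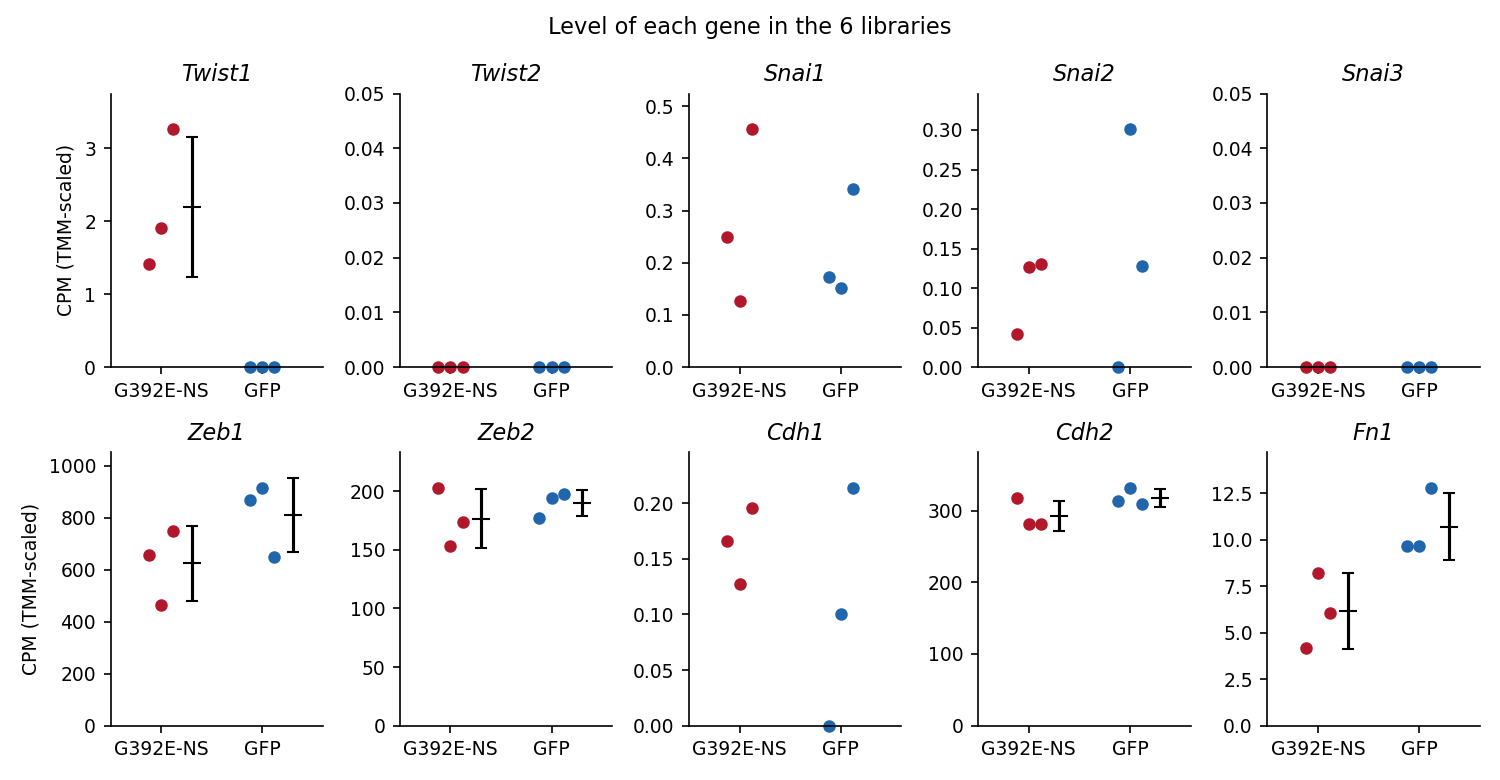
TMM-scaled CPM (vertical axis, from 0, a scale for each panel) of the 10 genes in the G392E-NS libraries (red, left) and GFP libraries (blue, right), 1 point a library in the order of replicates 1 to 3. Bars beside the points are the mean ± SD of 3 libraries, drawn for groups with counts of the 5 genes that passed the low-count filter. Twist1 lies apart upward (1.41 to 3.26 against 0 CPM) and Fn1 apart downward (4.16 to 8.23 against 9.64 to 12.8 CPM), and the other genes overlap or are at 0.

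Of the 10 genes, 5 passed the low-count filter (Twist1, Zeb1, Zeb2, Cdh2 and Fn1), Twist1 through the G392E-NS group alone. The other 5 had fewer than 10 counts in every library. In the fit over all genes, Twist1 alone of the 5 was past the threshold, upward, where 6.15% of all genes tested were past it in either direction (4.79% upward and 1.36% downward). The groups did not overlap for 1 of the 10 genes upward and 1 downward, and over all genes tested for 28.6% in either direction (15.7% upward and 12.9% downward). Since the set was built around Twist1 in this contrast, nothing is read from these counts.

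Set per kb of exon, Zeb1 had the highest and Cdh1 the lowest level above 0 in both groups, and apart from Twist1 the order of the mean levels was the same. In G392E-NS libraries, Zeb1 stood at 60.7 ± 14.1 CPM per kb, Cdh2 at 36.3 ± 2.55, Zeb2 at 8.86 ± 1.28 and Twist1 at 1.35 ± 0.587 (mean ± SD, n = 3). Below them came Fn1 at 0.526 ± 0.174, Snai1 at 0.171 ± 0.103, Snai2 at 0.0494 ± 0.0249 and Cdh1 at 0.0357 ± 0.0075 CPM per kb. In GFP libraries, Zeb1 stood at 78.9 ± 13.9 CPM per kb, Cdh2 at 39.4 ± 1.54, Zeb2 at 9.49 ± 0.563 and Fn1 at 0.916 ± 0.155. Snai1 followed at 0.137 ± 0.0647, Snai2 at 0.0708 ± 0.0748 and Cdh1 at 0.0229 ± 0.0234 CPM per kb.

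Twist1 entered this order between Zeb2 and Fn1, with more than Fn1 in each G392E-NS library (0.868, 1.17 and 2 CPM per kb for Twist1, 0.356, 0.704 and 0.519 for Fn1). Snai2 and Cdh1 overlapped each other in both groups, and Snai1 overlapped Snai2 in the GFP group only. Per kb, Zeb1 was 6.27, 5.92 and 8.35 times as high as Zeb2 in G392E-NS libraries and 9.54, 9.18 and 6.36 times in GFP libraries, so this balance overlapped between groups. Exon lengths here are unions over all annotated transcripts, 19942 bases for Zeb2, so genes with many optional exons appear lower than they are.

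**Figure D2:**
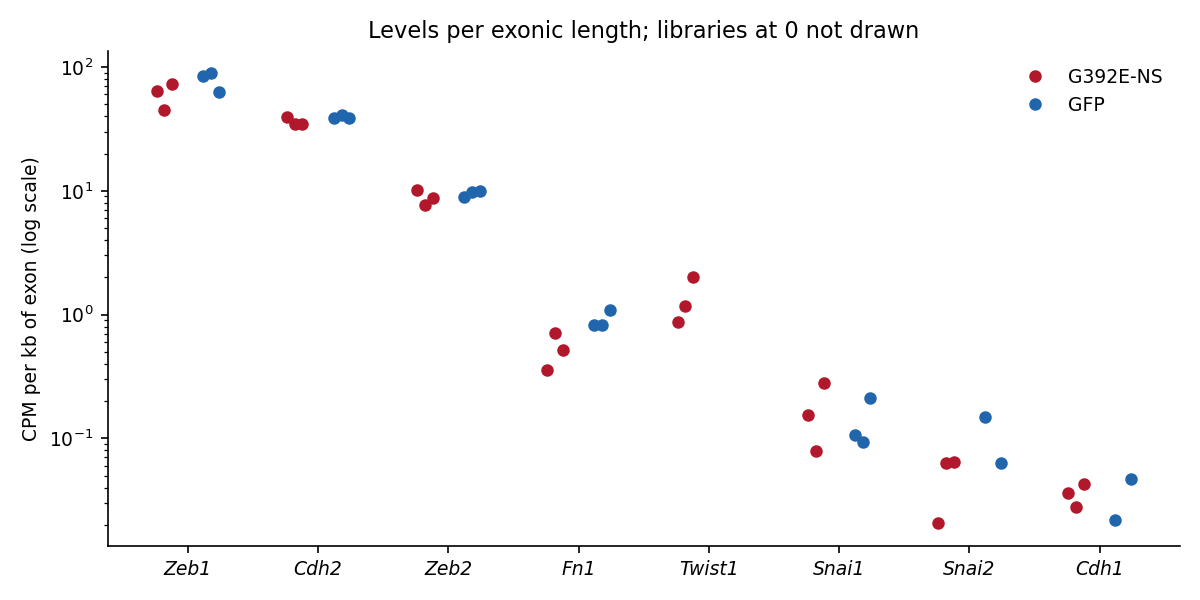
CPM per kb of exon (log axis) of the 8 genes with a count, in G392E-NS libraries (red, left of each tick) and GFP libraries (blue, right of it), 1 point a library; libraries at 0 are not drawn. Twist1 has points in G392E-NS libraries only, at 0.868 to 2 CPM per kb, levels between those of Zeb2 and Fn1.

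Genes of mesenchymal matrix and cytoskeleton, on a list of 42, showed no common shift among those high enough to test. Of 24 tested, 2 rose and 3 fell by the edgeR quasi-likelihood test over all genes, against 4.79% and 1.36% of all genes tested. At an unadjusted p under 0.05 there were 6 above and 5 below 0. The share of all genes at that unadjusted p was not worked out, so nothing is read from such counts on any list. The median log2 fold change of the 24 was 0, beside -0.005 over all genes tested, with 12 above and 12 below 0. Those that rose were Thy1, which encodes a membrane glycoprotein of neurons and fibroblasts, and Axl, which encodes a receptor tyrosine kinase for Gas6. Those that fell were Col5a2, a chain of fibrillar collagen V, Ddr2, a receptor for fibrillar collagen, and Itga5, the alpha chain of a fibronectin receptor.

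Thy1 (chromosome 9, 44043384 to 44048579) had 9.90, 23.3 and 20.9 CPM in G392E-NS libraries and 1.21, 0.753 and 0.898 CPM in GFP libraries (log2 fold change 4.24, SE 0.38, adjusted p = 0.000896 by edgeR). Every G392E-NS library was above every GFP library. Axl also rose (log2 fold change 1.14, SE 0.14, adjusted p = 0.00418 by edgeR), to 124, 145 and 100 CPM in G392E-NS libraries, against 60.9, 55.0 and 52.2 CPM in GFP libraries. Col5a2 (chromosome 1, 45374321 to 45503282) had 4.32, 3.73 and 9.26 CPM in G392E-NS libraries and 61.9, 75.2 and 23.1 CPM in GFP libraries (log2 fold change -3.25, SE 0.49, adjusted p = 0.0101 by edgeR). GFP replicate 3 was the lowest of its group and still above all G392E-NS libraries.

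Ddr2 fell too (log2 fold change -2.33, SE 0.29, adjusted p = 0.00398 by edgeR), with 0.728 ± 0.132 CPM in G392E-NS and 3.75 ± 0.890 CPM in GFP libraries (n = 3 each). Itga5 fell by 0.99 (SE 0.23, adjusted p = 0.0478 by edgeR), with 2.79 ± 0.429 CPM in G392E-NS and 5.54 ± 1.22 CPM in GFP libraries (n = 3 each). The Itga5 call was lost without any G392E-NS library (adjusted p = 0.0659 to 0.135 by edgeR), without replicate 1 or 2 of the GFP group (0.182 and 0.149), and in limma-voom (0.0544). Ddr2 shares 90 exonic bases with the antisense gene 3110045C21Rik. S100a4, a calcium-binding protein gene often used as a fibroblast marker and named after its values were seen, had 1.54, 3.9 and 3.52 CPM in G392E-NS libraries and 0.864, 0.803 and 1.45 CPM in GFP libraries. These did not overlap, and S100a4 missed the threshold (log2 fold change 1.49, SE 0.41, adjusted p = 0.0751 by edgeR).

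The textbook markers of mesenchyme did not pass the test or were hardly read. Vim, the vimentin gene, which neural progenitors and astrocytes also express, had 539, 1180 and 909 CPM in G392E-NS libraries and 682, 702 and 669 CPM in GFP libraries (log2 fold change 0.36, SE 0.25, adjusted p = 0.435 by edgeR). The G392E-NS libraries lay on both sides of the GFP range, and Vim passed the test when replicate 1 of them, the lowest, was left out (0.59, adjusted p = 0.0396 by edgeR). The smooth muscle actin gene Acta2 was at 0.964 ± 0.578 CPM in G392E-NS and 0.346 ± 0.266 CPM in GFP libraries (adjusted p = 0.203 by edgeR, n = 3 each), and the actin-binding protein gene Tagln at 2.54 ± 0.749 CPM in G392E-NS and 1.64 ± 0.489 CPM in GFP libraries (adjusted p = 0.278 by edgeR, n = 3 each). Col1a1, the collagen I gene, had 0, 5 and 1 counts in G392E-NS libraries and 2, 1 and 0 counts in GFP libraries. Dcn, Lum, Fap and Mmp3, genes of fibroblasts and activated matrix, had no count in any library. Among genes of the list too low to test, Tpm2, Col6a1 and Col6a2, named after their values were seen, had more CPM in every G392E-NS than in every GFP library. Tpm2 had 21, 17 and 7 counts in G392E-NS libraries and 3, 3 and 1 counts in GFP libraries. The other untested genes of the list overlapped or were at 0.

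Epithelial genes were almost silent in both groups. Of 32 on the list, 10 had no count in any library, among them Epcam, an epithelial adhesion molecule, and the keratins Krt8 and Krt18. Only 4 were high enough to test, and 0 passed in either direction by edgeR, DESeq2 or limma-voom, with 1 above 0 and 0 below at an unadjusted p under 0.05. By edgeR 6.15% of all genes tested passed in either direction, so nothing is read from 0 calls among 4 genes. The nearest was the tight junction gene Tjp3, with 1.55 ± 0.491 CPM in G392E-NS and 0.817 ± 0.111 CPM in GFP libraries (log2 fold change 0.89, SE 0.31, adjusted p = 0.140 by edgeR, n = 3 each). Summed over the list, epithelial genes came to 5.45 to 7.51 CPM in G392E-NS and 4.41 to 5.13 CPM in GFP libraries, which did not overlap. Much of this sum was Tjp3 and Grhl1, and neither was called. Grhl1, named after its values were seen, overlapped between groups (adjusted p = 0.243 by edgeR). It had 2.65 ± 0.551 CPM in G392E-NS and 1.64 ± 0.61 CPM in GFP libraries (n = 3 each).

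Of 28 transcription factors of mesenchyme and neural crest, 8 could be tested. Of these 1 rose, where 4.79% of all genes tested did: Tbx18, a T-box factor of pericytes, epicardium and meninges. Tbx18 (chromosome 9, 87702800 to 87731260) had 60, 60 and 51 counts in G392E-NS libraries and 2, 4 and 6 counts in GFP libraries. Its levels were 2.49, 2.54 and 3.33 CPM in G392E-NS and 0.115, 0.201 and 0.257 CPM in GFP libraries (log2 fold change 3.78, SE 0.34, adjusted p = 0.000844 by edgeR). Of its exonic bases, 970 of 4718 are shared with the antisense gene D030062O11Rik, whose reads cannot be told apart from its own if counting ignored strand. None of the list fell by edgeR or limma-voom, with 1 below 0 at an unadjusted p under 0.05 and 1 called by DESeq2. The nearest to it was Prrx1, a homeobox factor of limb and craniofacial mesenchyme, named after its values were seen, at 16.0, 19.9 and 8.22 CPM in G392E-NS libraries and 34.7, 26.9 and 38.5 CPM in GFP libraries (log2 fold change -1.17, SE 0.29, adjusted p = 0.0537 by edgeR). The crest factors Foxd3 and Alx1 and the mesoderm factors Hand1, Hand2 and Tcf21 were at 0 in all 6 libraries. The list's median was 0.20, with 5 above and 3 below 0.

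**Figure D3:**
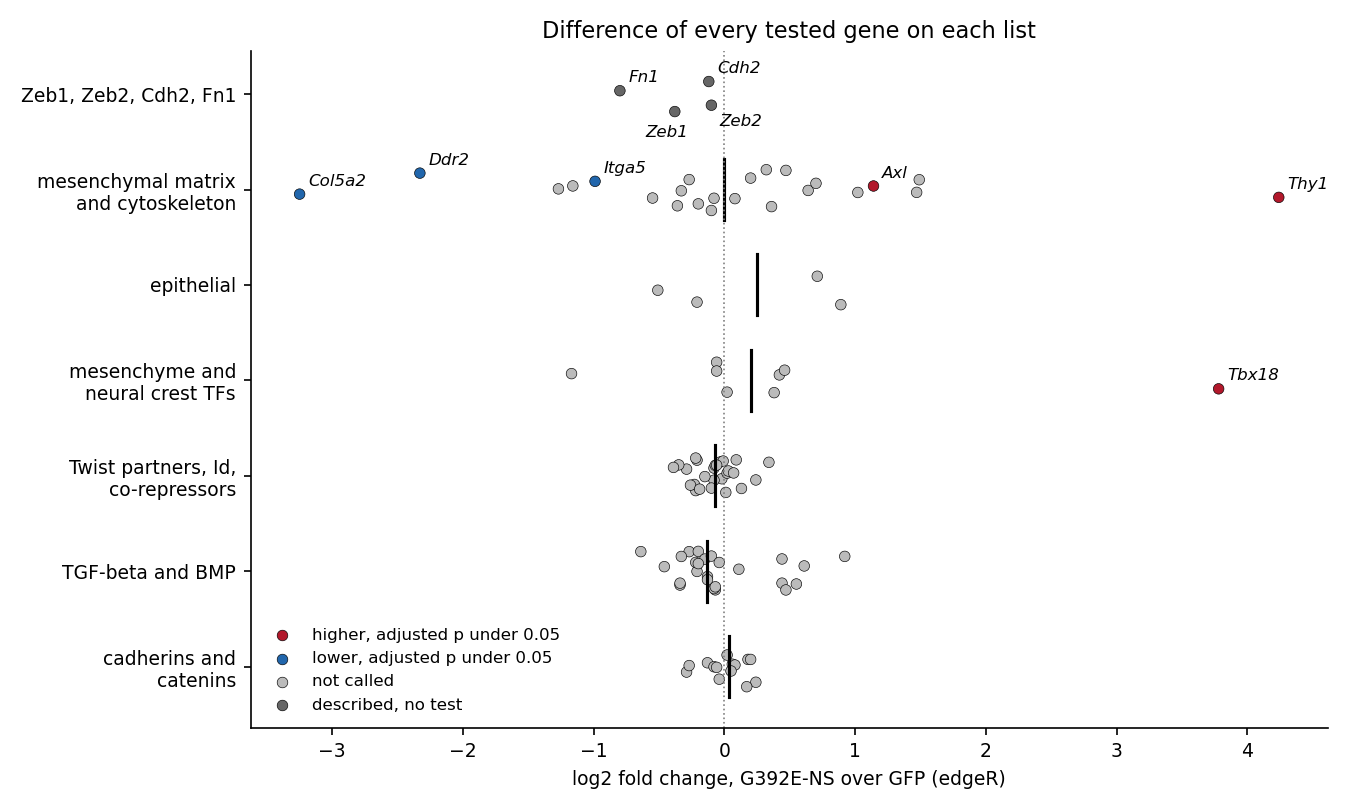
Log2 fold change of G392E-NS over GFP (edgeR, horizontal axis) for Zeb1, Zeb2, Cdh2 and Fn1 (dark grey, no test) and for every tested gene on each list, with 1 point a gene and a black bar at the list's median. Red points were higher and blue points lower at an adjusted p under 0.05: Thy1, Axl and Tbx18 to the right, Col5a2, Ddr2 and Itga5 to the left. Twist1 is not drawn, because a group at 0 gives no fold but a bound.

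The partners through which Twist works were expressed in both groups and did not pass the test. E proteins, the dimer partners, stood at 113 ± 17.5 CPM in G392E-NS and 115 ± 7.23 CPM in GFP libraries for Tcf3, and at 665 ± 53.7 CPM in G392E-NS and 701 ± 58.3 CPM in GFP libraries for Tcf12 (n = 3 each). Tcf4 was the highest, at 1050 ± 161 CPM in G392E-NS and 1280 ± 20.4 CPM in GFP libraries (log2 fold change -0.29, SE 0.14, adjusted p = 0.263 by edgeR, n = 3 each). Its groups did not overlap, with every G392E-NS library below every GFP library. The Id genes encode inhibitors that take up E proteins. Id1, Id2, Id3 and Id4 had log2 fold changes of 0.34, -0.02, -0.35 and 0.09, with adjusted p of 0.667, 0.951, 0.365 and 0.782 by edgeR.

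Of the 26 genes on the list of partners, Id genes and co-repressors, all 26 were tested and 0 passed in either direction by edgeR or limma-voom. At an unadjusted p under 0.05, 0 lay above and 2 below 0, and DESeq2 called 1 lower. The list's median was -0.07, with 8 above and 18 below 0. Groups did not overlap for 1 gene upward and 6 downward, beside 15.7% and 12.9% of all genes tested. As 6.15% of all genes tested passed by edgeR in either direction, little is read from 0 calls among 26 genes. The smallest p was that of Ezh2, a histone H3 methyltransferase that Snail can recruit, at 79.2 ± 9.15 CPM in G392E-NS and 104 ± 7.25 CPM in GFP libraries (log2 fold change -0.39, SE 0.11, adjusted p = 0.0759 by edgeR, n = 3 each). It passed without G392E-NS replicate 1 (adjusted p = 0.0317 by edgeR) and in DESeq2 (0.0307).

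Signals that induce Twist, Snail and Zeb genes in other tissues were not called either. Of 35 genes of the TGF-beta and BMP pathways, 25 were tested and 0 passed in either direction by edgeR or limma-voom. At an unadjusted p under 0.05, 3 lay above and 2 below 0, and DESeq2 called 1 higher. The list's median was -0.13, with 7 above and 18 below 0. As 6.15% of all genes tested passed by edgeR in either direction, little is read from 0 calls among 25 genes. The nearest was the ligand gene Tgfb2, at 22, 41.4 and 24.8 CPM in G392E-NS libraries and 16.1, 12.8 and 17.8 CPM in GFP libraries. These did not overlap (log2 fold change 0.92, SE 0.25, adjusted p = 0.0677 by edgeR), and Tgfb2 passed without G392E-NS replicate 1 (0.0359) and in DESeq2 (0.00572).

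Of 23 other classical cadherins and catenins, 14 were tested and 0 passed by edgeR, DESeq2 or limma-voom, with 0 above and 0 below at an unadjusted p under 0.05. Their median log2 fold change was 0.03, with 8 above and 6 below 0. As 6.15% of all genes tested passed by edgeR in either direction, little is read from 0 calls among 14 genes. The smallest p belonged to Cdh11, the cadherin of mesenchyme and osteoblasts, which was at 108 ± 6.20 CPM in G392E-NS and 94.4 ± 4.48 CPM in GFP libraries (log2 fold change 0.20, SE 0.09, adjusted p = 0.229 by edgeR, n = 3 each).

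None of the 5 genes most like Twist1 over the 6 libraries stands on these lists. Likeness was measured over 12850 genes with at least 100 counts, as the summed difference between the shares of a gene's CPM that fell in each library, where 0 is identical. The nearest were Scarf2, a scavenger receptor family gene (0.0466), Ramp1, an accessory protein of CGRP receptors (0.0843), Rgl3, a Ral exchange factor gene (0.116), Gstt1, a glutathione transferase gene (0.181), and Fgf14, a fibroblast growth factor homologue that regulates sodium channels (0.218). Scarf2 had 51, 59 and 71 counts in G392E-NS libraries and 1, 1 and 0 counts in GFP libraries. The G392E-NS replicate 3 library held the largest share of each, 49.5% for Twist1, 49.5% for Scarf2 and 38.6% for Fgf14, and no GFP library held more than the 2.66% of Gstt1 in GFP replicate 1. With 129 Twist1 counts in all, the shares are coarse, and the likeness is a description of 6 libraries that form 2 groups. The 5 genes were picked for this likeness, so their shares follow from the choice. The Scarf2 window printed with that of Twist1 held 1 CAGGTG, 142 bases before the start, and no TATAA.

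**Figure D4:**
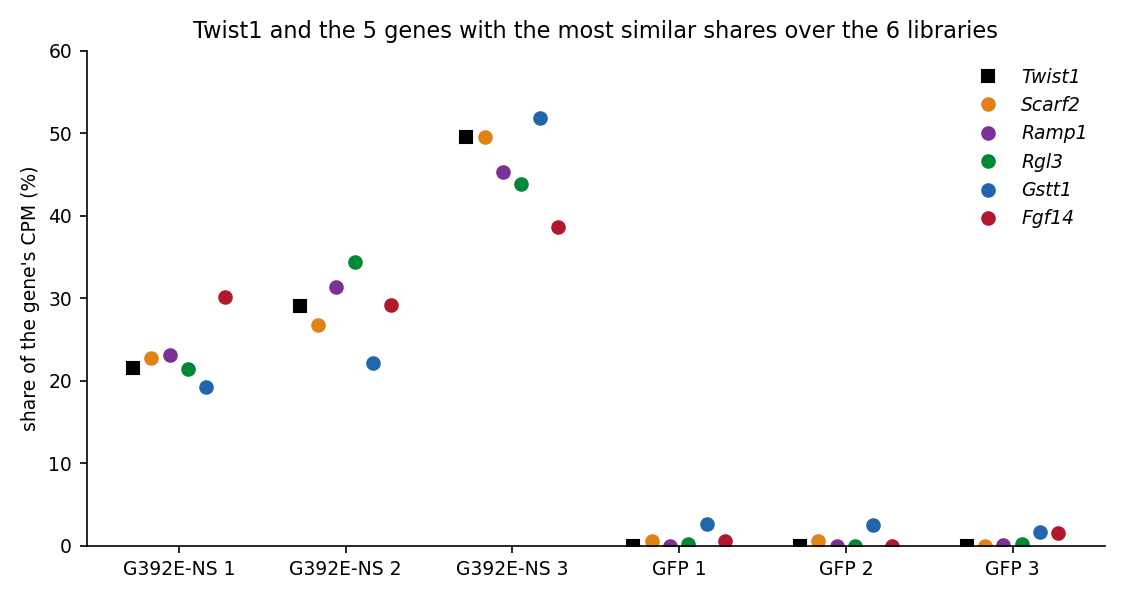
Share of each gene's CPM (percent, vertical axis) that fell in each of the 6 libraries (horizontal axis, G392E-NS replicates, then GFP replicates) for Twist1 (black squares) and the 5 genes most like it (coloured points). In each gene G392E-NS replicate 3 holds the largest share, 38.6% to 51.8%, and the GFP libraries lie at 0 to 2.66%. The genes were picked for this likeness, so these shares follow from the choice.

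Markers of other cell types were read beside these genes, because Twist1, Tbx18 and fibrillar collagens also mark meningeal fibroblasts and pericytes. Of the 10 meningeal fibroblast markers, 3 were tested and 2 rose, Tbx18 and Pdgfra, where 4.79% of all genes tested rose. The 10 markers summed to 579 to 1060 CPM in G392E-NS and 296 to 438 CPM in GFP libraries. Almost all of that sum was Pdgfra, also a marker of oligodendrocyte precursors (751 ± 265 CPM in G392E-NS and 347 ± 77.9 CPM in GFP libraries, n = 3 each, adjusted p = 0.0435 by edgeR). The Pdgfra call was lost without G392E-NS replicate 2 (0.0538) and without GFP replicate 1, 2 or 3 (0.172, 0.155 and 0.0512). The third tested marker, the forkhead gene Foxc1, had 4.91, 3.9 and 2.93 CPM in G392E-NS libraries and 3.46, 3.51 and 2.14 CPM in GFP libraries, which overlapped (log2 fold change 0.38, SE 0.28, adjusted p = 0.456 by edgeR). All 3 tested markers lay above 0, with a median log2 fold change of 1.12. Of the others, Dcn and Lum had no count in any library, and Col1a2 and Col3a1 had 1 count each over the 6 libraries. The part of such cells in the levels of Twist1 and Tbx18 was not tested. Of these 10 markers, 8 stand on another list used here.

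Pericyte and smooth muscle markers summed to 1.5 to 3.94 CPM in G392E-NS and 0.727 to 1.56 CPM in GFP libraries. Both tested markers, Acta2 and Myh11, lay above 0, with a median log2 fold change of 0.89. The receptor gene Pdgfrb, too low to test, had 11, 36 and 2 counts in G392E-NS libraries and 0, 0 and 4 counts in GFP libraries, which overlapped, and Rgs5 had 5 counts over the G392E-NS libraries and 0 over the GFP libraries. The part of such cells in the level of Tbx18 was not tested either. Endothelial markers came to 2.35 to 2.97 CPM in G392E-NS and 2.48 to 3.74 CPM in GFP libraries, and microglia and macrophage markers to 0.0416 to 0.326 CPM in G392E-NS and 0.128 to 0.351 CPM in GFP libraries. Choroid plexus and ependyma markers stood at 20.9 to 45.3 CPM in G392E-NS and 16.6 to 19.5 CPM in GFP libraries, which did not overlap. Nearly all of this was Foxj1, a regulator of motile cilia, at 20.2, 40 and 45.3 CPM in G392E-NS and 16.4, 19.3 and 16.7 CPM in GFP libraries (log2 fold change 1, SE 0.27, adjusted p = 0.0688 by edgeR). The other 7 markers had at most 8 counts in any library.

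Markers of the labelled cells were abundant in sum, though not each of them. Neural progenitor markers summed to 3790 to 4840 CPM in G392E-NS and 4040 to 4660 CPM in GFP libraries, and neuronal markers to 3220 to 4440 CPM in G392E-NS and 3450 to 3980 CPM in GFP libraries. Most of the progenitor sum was Fabp7 (mean 2660 CPM in G392E-NS and 2620 CPM in GFP libraries), and most of the neuronal sum Map2 (2630 and 2750 CPM). The neuronal marker Snap25 had means of 12.3 and 8.91 CPM. Stmn2, too low to test, had 2 counts over the G392E-NS and 12 over the GFP libraries. Of 8 progenitor and 9 neuronal markers tested, each list had 1 called higher (Prom1, Gap43) and 1 lower (Nes, Elavl4). Over all genes tested, 4.79% were called higher and 1.36% lower. Oligodendrocyte lineage markers came to 2760 to 5050 CPM in G392E-NS and 3220 to 3900 CPM in GFP libraries. Of 8 tested, 2 were called higher, Pdgfra and Mog.

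Astrocyte markers differed more, with sums of 7450 to 12400 CPM in G392E-NS and 3260 to 4680 CPM in GFP libraries, which did not overlap. Of 8 tested, 3 rose by edgeR (Aldh1l1, Slc1a2 and Aldoc), where 4.79% of all genes tested rose. The list's median log2 fold change was 1.22. Each of these 3 calls was lost without at least 1 GFP library: Slc1a2 without replicate 2 (adjusted p = 0.0638 by edgeR) or 3 (0.0517), Aldoc without replicate 1 (0.0886) or 2 (0.055), and Aldh1l1 without any one of them (0.0657 to 0.126) or without G392E-NS replicate 3 (0.0594). Groups did not overlap, upward, for 6 of the 8 markers, beside 15.7% of all genes tested. Gfap, just past the threshold, had 2.99, 26.2 and 2.15 CPM in G392E-NS and 0.403, 0.0502 and 0.642 CPM in GFP libraries (log2 fold change 4.79, SE 1.16, adjusted p = 0.0511 by edgeR). Aqp4 was the 1 marker below 0 (-0.14). The part of the astrocyte marker difference in the gain of Twist1, and in the values of Zeb1, Vim, Axl and Thy1, was not tested.

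**Figure D5:**
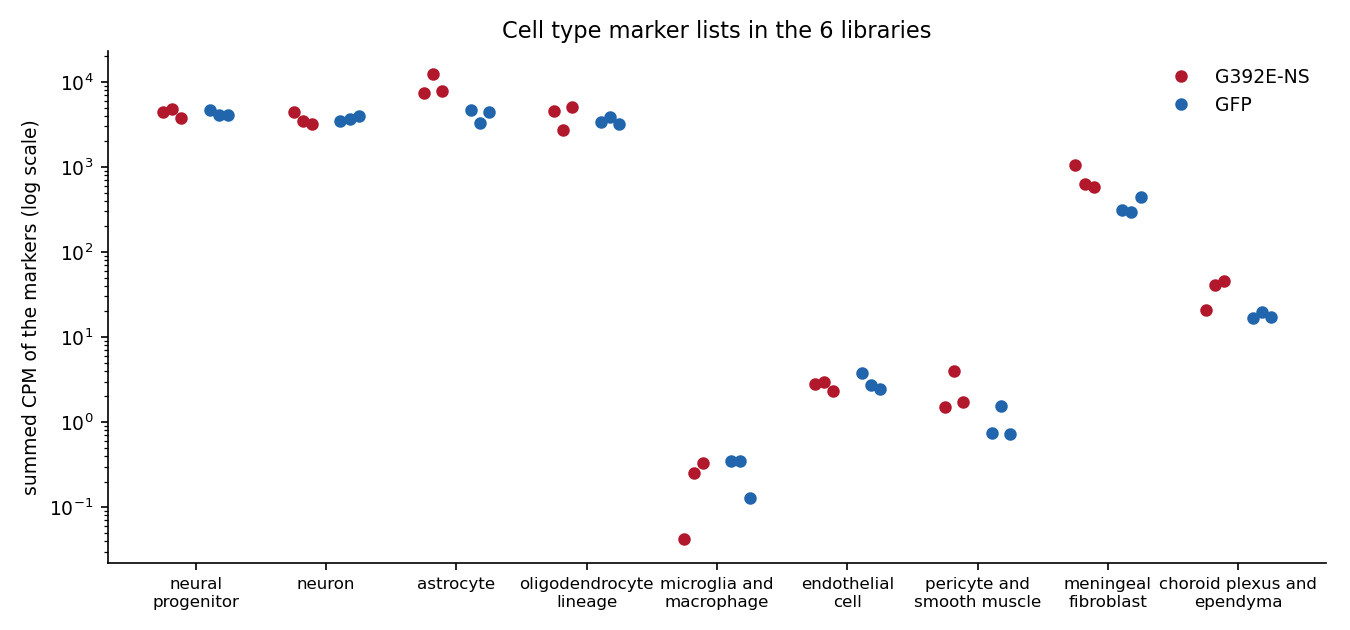
Summed TMM-scaled CPM (log axis) of 9 cell type marker lists in G392E-NS libraries (red, left of each tick) and GFP libraries (blue, right of it), 1 point a library. Progenitor, neuron, astrocyte and oligodendrocyte lineage markers lie at 2760 CPM or more in every library, astrocyte markers apart between the groups, and microglial, endothelial and pericyte markers at 3.94 CPM or less.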

How the data were processed

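The deposited table gives unnormalised raw counts of reads, as its whole numbers and unequal totals show. GRCm38 is the build in the submitters' processing notes, which also list HTSeq 0.6.1, TopHat2 2.0.12, DESeq2 1.4.5 and R 3.2.2 without their roles. Neither annotation release nor strand setting is stated there. Columns were matched to samples by title. Symbols, positions and exon lengths came from GENCODE M21 (GRCm38), which matched 37607 of 39179 IDs.

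Counts were tested with edgeR 4.0.16 in R 4.3.3: filterByExpr, TMM scaling and the quasi-likelihood test of G392E-NS against GFP with no covariate, with Benjamini-Hochberg adjustment over all 13775 genes tested and a threshold of 0.05. Standard errors are the fold change over the root of F. Depth-scaled ratios of low counts have 95% exact binomial intervals, and floors are 3 counts over a group; both cover counting error only. Replicates differed far beyond sampling noise (chi-square per degree of freedom 8.02 to 56.4), so no pair was treated as 1 library; this does not show that they are biological replicates. The tests were tried on simulated data, with changes set in genes at 1 CPM or more. There edgeR recovered 14% of 1.5-fold, 70% of 2-fold, 96% of 3-fold and 100% of 4-fold changes, with 10 false among 150 calls. A gene not called may thus still differ, above all by less than 2-fold.

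The members and lists were chosen with earlier results of these data known. Named genes are the 10 members, 14 listed genes, up to 4 called genes per list and direction or the one of smallest p, and the 5 most like Twist1; others are said to be chosen after their values were seen. Marker genes are named beside their lists. As alternatives, each library was left out in turn, the replicate number was a block, the filter was dropped or set to 1 CPM in 3 libraries, scaling was by RLE, upper quartile or total count, and DESeq2 1.42.0 and limma-voom (limma 3.58.1) replaced edgeR. For called cell type markers these were added after seeing the data.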

Additional observations from a re-analysis of the deposited data

How the results depend on the processing

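Over 14 alternatives, the log2 fold changes of Zeb1 (-0.53 to -0.20), Cdh2 (-0.20 to -0.08) and Fn1 (-1.08 to -0.60) kept their sign, and that of Zeb2 ran from -0.23 to 0. Fn1 groups stayed apart under all 5 scalings. For Twist1 this could not come out otherwise, because scaling leaves the 0 counts of the GFP libraries at 0. The Twist1 bound was 25.5-fold to 48.7-fold with 1 library left out. Thy1, Axl, Ddr2 and Tbx18 passed under each of 14 alternatives.

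Counts of calls moved more. Over all genes, where 847 passed, 1450 did by DESeq2, 1579 with the low-count filter dropped, and 242 to 1373 with 1 library left out. With the replicate block 267 passed, and the 3 lower matrix genes became 1, with Col5a2 at an adjusted p of 0.0715 and Itga5 at 0.14 (edgeR). The block also ended the calls of the markers Nes, Elavl4, Aldh1l1, Slc1a2, Aldoc and Pdgfra. Deviations of same-numbered samples correlated at 0.04, -0.44 and -0.28. G392E-NS replicate 2 with GFP replicate 3 reached 0.33, and G392E-NS replicate 3 with GFP replicate 2 reached 0.4. The other unlike-numbered pairs lay between -0.07 and 0.05. Deviations from the mean of 3 libraries sum to 0, so this check cannot show whether samples of the groups were paired. Higher matrix genes numbered 6 with the filter dropped and 2 to 4 with 1 library left out. Of the mesenchyme factors, 1 was lower by total-count scaling, by DESeq2 and with the filter dropped, and 0 to 1 with 1 library left out. Of the TGF-beta and BMP genes, 1 was higher by DESeq2 and with the filter dropped, and 0 to 1 higher and 0 to 1 lower with 1 library left out. Of the Twist partners, 1 was lower by DESeq2 and 0 to 1 with 1 library left out. The Nes call was lost under 8 of 14 alternatives and that of Elavl4 under 6, among them each GFP library left out; that of Mog was lost without G392E-NS replicate 2 or any GFP library. The cause of these moves was not tested. Depth limits Snai1, Snai2, Cdh1 and all but 4 of the 32 epithelial genes, whose counts are too low to test.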
